A study of Caenorhabditis elegans with 2 samples.

Results

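The 9 genes described here encode the V1 sector of the vacuolar proton pump (V-ATPase) of Caenorhabditis elegans, and they were taken by name from a fixed list, vha-8 to vha-15 and vha-18, out of 19973 protein-coding genes on the nuclear chromosomes. Their starts were read in a chromatin immunoprecipitation and sequencing (ChIP-seq) map of ZK185.1, a protein tagged at its C-terminus with GFP and FLAG and precipitated with an antibody to GFP. The worms were whole young adult hermaphrodites of strain OP474, whose genotype is given as unc-119(tm4063) III; wgIs474, harvested 56.25 h after a synchronized release from starved L1 arrest. There was 1 group with 2 biological replicates, each from its own biosample, and no second condition. The promoter that drives the tagged copy is not given in the labels. Because whole animals were pooled, signal in few cells and weak signal in many cells cannot be told apart.

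The V-ATPase moves protons across membranes at the cost of ATP and so acidifies lysosomes, endosomes and other compartments. Its V1 sector lies in the cytosol and hydrolyses ATP in a ring of alternating A and B subunits. This turns a central rotor that contains D and F, while C, E, G and H form the outer stalks and hold the ring to V0, the sector in the membrane through which the protons pass. In C. elegans the pump is prominent in the excretory cell, the intestine and the epidermis. The gene for A is vha-13 and that for B is vha-12, vha-14 encodes D, vha-9 F, vha-11 C, vha-8 E and vha-10 G, and both vha-15 and vha-18 encode H.

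A peak of the authors' thresholded list had its summit in the start window of 4 of the 9 V1 genes (44.4%), against 6.77% of nuclear protein-coding genes. The start window spans 1000 bp before and 200 bp after the position annotated as the gene's 5′ end. The genes with a peak were those for the catalytic subunit A (vha-13), for B (vha-12), for E (vha-8) and for one of the H subunits (vha-15). That for F, vha-9, held the first pooled region below the threshold. The genes for D and C had weak regions, that for G had a single weak region in 1 replicate, and vha-18, the other H gene, had no region in any list. The list of genes was chosen with earlier results of these data known. For this reason, and with 1 group and no second condition, these counts are a description and carry no test.

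The sequences around 4 of the 5 strongest summits are shown because the values below turn on these sites, 3 of them past the threshold and 1 just short of it. The strongest summit, at vha-13, is not shown because it lies in the 3′ untranslated region of the gene cept-2. Each is 201 bases, centred on the pooled summit and written 5′ to 3′ on the strand of the gene, from the WBcel235 (ce11) genome of RefSeq. They lie at chrX:4190640-4190840 for vha-12 (plus strand), chrII:10303803-10304003 for vha-9 (minus strand), chrIV:6790540-6790740 for vha-8 (plus strand) and chrX:2237548-2237748 for vha-15 (plus strand). Capitals mark AGAGAG and ATGCAAA on either strand.
vha-12: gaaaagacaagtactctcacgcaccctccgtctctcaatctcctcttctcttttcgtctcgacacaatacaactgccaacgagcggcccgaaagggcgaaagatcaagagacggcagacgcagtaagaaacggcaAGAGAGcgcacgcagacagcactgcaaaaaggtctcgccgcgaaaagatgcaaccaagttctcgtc
vha-9: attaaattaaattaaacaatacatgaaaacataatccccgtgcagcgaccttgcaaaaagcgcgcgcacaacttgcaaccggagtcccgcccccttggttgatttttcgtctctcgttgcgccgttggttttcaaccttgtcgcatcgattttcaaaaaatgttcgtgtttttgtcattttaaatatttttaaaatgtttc
vha-8: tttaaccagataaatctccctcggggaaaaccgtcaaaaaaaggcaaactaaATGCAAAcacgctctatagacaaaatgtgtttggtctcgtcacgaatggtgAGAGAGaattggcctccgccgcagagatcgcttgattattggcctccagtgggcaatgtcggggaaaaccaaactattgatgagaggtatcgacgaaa
vha-15: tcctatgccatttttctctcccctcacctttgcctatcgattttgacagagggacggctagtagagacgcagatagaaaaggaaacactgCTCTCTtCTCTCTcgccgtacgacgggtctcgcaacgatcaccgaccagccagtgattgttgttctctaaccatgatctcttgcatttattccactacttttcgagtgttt
The vha-12, vha-8 and vha-15 sequences hold AGAGAG or its reverse complement CTCTCT, with 1 copy each at vha-12 and vha-8 and 2 at vha-15. The vha-9 sequence holds neither word, but it has TCTCTC, the same repeat in the other phase.

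The genes of the ATPase ring both carried peaks upstream of their starts. At vha-13 (WBGene00013025, chromosome V, 14351709 to 14354422, plus strand) the peak at 14351061 to 14351376 had a pooled signal of 137 and rank 571 of 30000. Signal here is the authors' peak height, whose scale is not stated, so that it is read within a list. The same site had a signal of 20.6 in replicate 1 (rank 2134) and of 65.6 in replicate 2 (rank 644). It was thus far higher in the order of replicate 2 than in that of replicate 1.

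The summit lay 490 bp upstream of the start of vha-13 but inside the last exon of cept-2, in its annotated 3′ untranslated region, 263 bp before the end of that gene. The RefSeq annotation describes the product of cept-2 as a diacylglycerol cholinephosphotransferase. It lies 226 bp upstream of vha-13 on the same strand, and its own start had a separate and stronger peak, with a signal of 302 and rank 105. Replicate signals at the cept-2 start were 77.5 and 174. Of the coding genes with a peak, 34.1% had a stronger one than vha-13. The coding starts next to it in the pooled order were those of Y38E10A.22 and Y38E10A.24, which share a peak (signal 136.8, rank 570), and R13A5.7 (136.5, rank 573).

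At vha-12 (WBGene00006921, chromosome X, 4191094 to 4193144, plus strand) the peak at 4190582 to 4190897 had a pooled signal of 113 and rank 792, with its summit 354 bp upstream. The replicates differed most here. The matching region had a signal of 7.85 in replicate 1 (rank 9719) and of 82.8 in replicate 2 (rank 460), a ratio of 10.5. Replicate 1 also listed a region 727 bp upstream with a signal of 8.45, and replicate 2 one 956 bp upstream with 11.4. No coding gene shared the summit, since the next gene upstream, mrp-6, lies 4337 bp away in the opposite orientation. On chromosome X 6.48% of coding genes had a peak at their start.

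The rotor genes had no thresholded peak. At vha-9 (WBGene00006918, chromosome II, 10303050 to 10303713, minus strand) the pooled region at 10303745 to 10304060 had rank 2054 and a summit 190 bp before the start, where the thresholded list ends at rank 2053. Its signal of 56.9698 was 0.00232 below the 56.9721 of the weakest thresholded peak, which lay at F02E9.1 and F02E9.3. Replicate 1 had 22.5 (rank 1871) and replicate 2 had 27.1 (rank 2406) at this site, so that it was among the 2053 strongest regions of replicate 1 and not of replicate 2. Regions that fall on either side of the threshold here are nearly equal in signal.

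At vha-14 (WBGene00010130, chromosome III, 9508100 to 9509757, plus strand) the strongest pooled region, at 9507821 to 9508136, had a signal of 21.0 and rank 9311, with its summit 121 bp upstream. Both replicates listed it, with 3.26 (rank 24471) and 7.03 (rank 17666). These are low in both orders. The nearest thresholded peak had a signal of 61.2 and lay beyond the gene, 204 bp past its 3′ end.

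Of the genes for the stalk subunits C, E and G, vha-8 alone had a peak. At vha-8 (WBGene00006917, chromosome IV, 6791074 to 6792455, plus strand) the peak at 6790612 to 6790690 had a pooled signal of 120 and rank 714. With 79 bp it was narrow in the pooled list, as were the 7.74% of thresholded peaks under 100 bp, where the median was 316 bp. The same site was listed with 330 bp in replicate 1 and 316 bp in replicate 2. Replicate 1 had a signal of 17.1 (rank 2871) and replicate 2 of 77.6 (rank 508), again lower in replicate 1.

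The vha-8 summit lay between divergent genes, 434 bp upstream of vha-8 and 152 bp upstream of C17H12.2, a gene annotated by RefSeq for a Mab-21 domain protein. The peak therefore counts for both genes, and only for C17H12.2 when a summit is given to its nearest start. Such sharing was common, since 32.8% of the 1035 peaks in coding start windows lay in the windows of 2 or more genes. A second pooled region, 195 bp downstream of the vha-8 start, had a signal of 10.8 and rank 23794.

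At vha-11 (WBGene00006920, chromosome IV, 2307815 to 2314567, minus strand), which encodes subunit C, the only pooled region in the window, at 2314748 to 2315063, had a signal of 19.5 and rank 10492. It lay 339 bp upstream of the start. Replicate 1 had 12.2 (rank 4920) and replicate 2 had 4.28 (rank 28844), the reverse of the order at the 4 peaks. A stronger pooled region, with 33.5 and rank 4449, lay 299 bp downstream of the start and so outside the window. The nearest thresholded summit was 94089 bp away.

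At vha-10 (WBGene00006919, chromosome I, 5609341 to 5610270, minus strand), which encodes subunit G, the pooled and replicate 2 lists had no region in the window. Replicate 1 had a single one, 168 bp downstream of the start, with a signal of 4.13 and rank 20377. Just past the window, 323 bp downstream, the pooled list had a region with a signal of 34.0 and rank 4340. The nearest thresholded peak, with 101, lay 263 bp past the 3′ end of vha-10 and 237 bp upstream of ubl-5, which encodes a ubiquitin-like protein.

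The H genes differed from each other. At vha-15 (WBGene00020507, chromosome X, 2237911 to 2240255, plus strand) the peak at 2237490 to 2237805 had a pooled signal of 70.2 and rank 1521, with its summit 263 bp upstream. Replicate 1 had 18.8 (rank 2446) and replicate 2 had 29.6 (rank 2118). It was the weakest of the 4 peaks, and 80.6% of coding genes with a peak had a stronger one. A further pooled region 792 bp upstream had a signal of 28.1 and rank 5803.

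At vha-18 (WBGene00018698, chromosome V, 8411775 to 8413482, minus strand) no list held a region in the window (0 in each of the thresholded, pooled and replicate lists). The nearest pooled region, with a signal of 13.9 and rank 17254, lay 1516 bp downstream of the start, and the nearest thresholded peak 28985 bp downstream. The gene starts 603 bp from pos-1, a divergent gene for an RNA-binding protein of the early embryo, whose own start window also had no pooled or replicate region. A window from 2000 bp upstream of vha-18 held a pooled region with a signal of 41.0. Since no pooled summit was nearer than 1516 bp, this region lay in the distal part of pos-1 or past its 3′ end. Of nuclear coding genes 47.0% had no region in any list, so that an empty window is common, and a region below the end of a list of fixed length would not be seen.

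**Figure D1:**
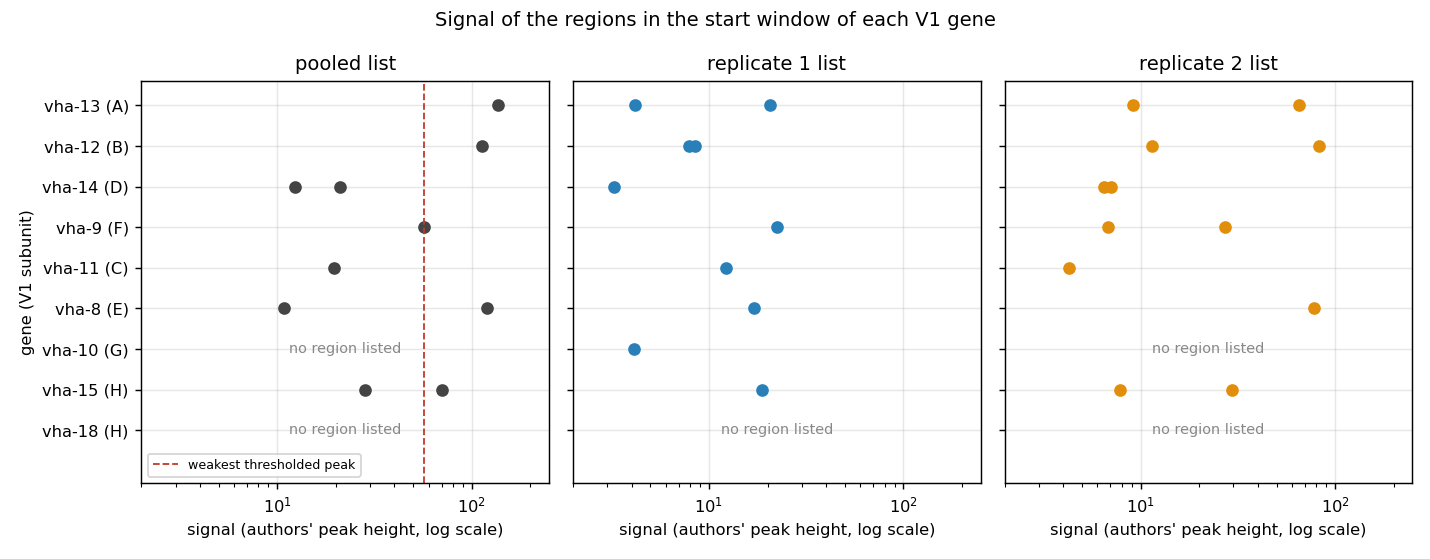
Signal of every region in the start window of the 9 V1 genes, with 1 panel for each relaxed list and a log axis of the authors' peak height. Points right of the dashed line in the pooled panel, at vha-13, vha-12, vha-8 and vha-15, are thresholded peaks, the vha-9 point sits on the line at 57.0, and vha-18 has no point in any panel.

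**Figure D2:**
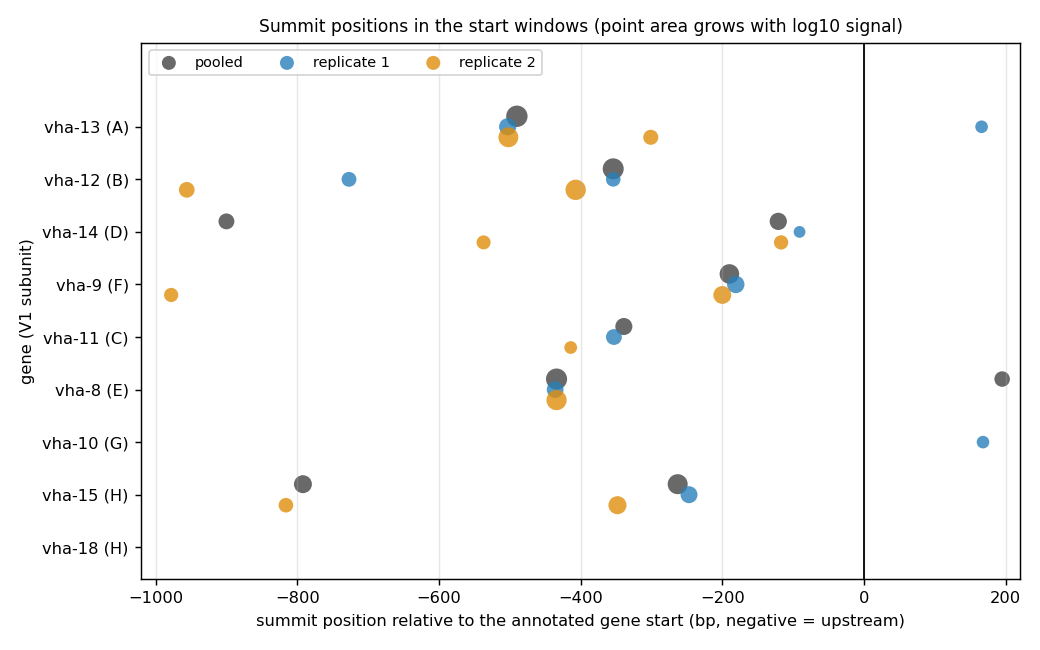
Positions of the summits relative to the annotated start of each V1 gene in bp, with colours for the pooled, replicate 1 and replicate 2 lists and point areas that grow with log10 signal. The thresholded peaks at vha-13, vha-8, vha-12 and vha-15 have summits 263 to 490 bp upstream with a replicate summit within 100 bp in each replicate, and weaker regions lie elsewhere in the windows, such as the pooled ones 195 bp downstream at vha-8 and 792 bp upstream at vha-15.

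The summits of the 4 peaks were 490, 434, 354 and 263 bp upstream of the start at vha-13, vha-8, vha-12 and vha-15, with a median of 394 bp, against a median of 248 bp upstream over the 1352 coding genes with a peak. The median is over 4 genes, and 21.3% of all coding genes with a peak had it farther upstream than vha-13. Their median signal of 117 was near the 106 of all coding genes with a peak. Apart from vha-13, whose summit lay in cept-2, the summits at the 4 genes and at vha-9, vha-11 and vha-14 were intergenic.

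**Figure D3:**
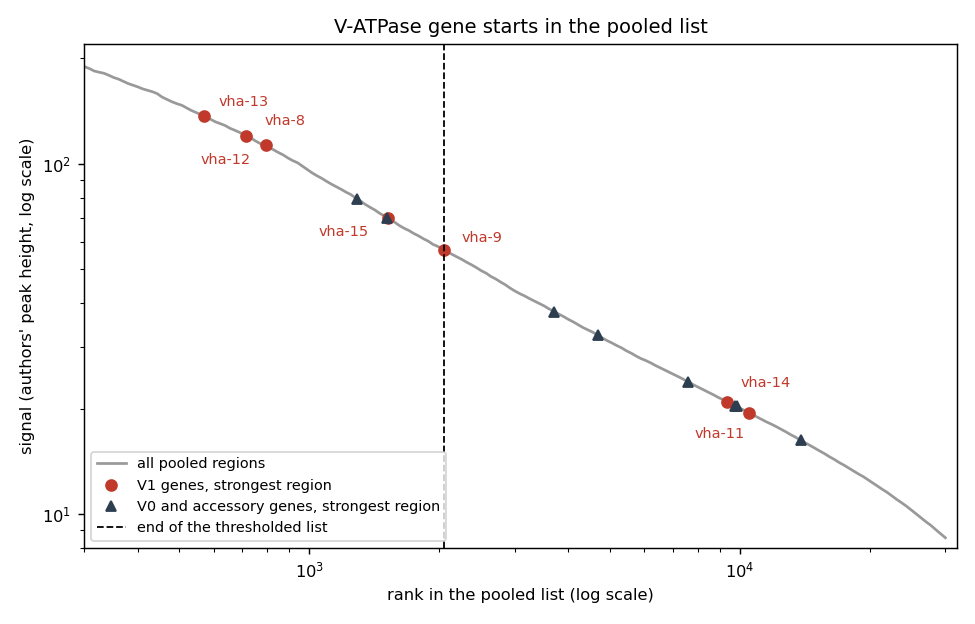
Signal against rank in the pooled list, both on log axes, with the strongest region of each V1 gene (circles) and of each V0 or accessory gene (triangles) on the curve of the pooled regions (grey). The 4 V1 peaks have ranks of 571 to 1521, vha-9 lies at the end of the thresholded list, and vha-14 and vha-11 lie far below it.

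A region in all 3 relaxed lists was present at 7 of the 9 V1 genes, against 21.9% of nuclear coding genes. The exceptions were vha-10, with a region in replicate 1 only, and vha-18. These lists are filled to 30000 regions each, and 36.8% of coding genes had a pooled region in the window.

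The replicates gave the V1 genes different orders. In the pooled list the order was vha-13, vha-8, vha-12, vha-15, vha-9, vha-14 and vha-11. In replicate 2 vha-12 led with 82.8, ahead of vha-8 with 77.6 and vha-13 with 65.6, so that the steps of 16.6 and 7.28 between these genes in the pooled list were not kept. In replicate 1 vha-9 led with 22.5, ahead of vha-13, vha-15 and vha-8.

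At the 4 peaks the signal was higher in replicate 2. The ratio of replicate 2 to replicate 1 was 10.5 at vha-12, 4.54 at vha-8, 3.18 at vha-13 and 1.57 at vha-15, where the median over the 1656 thresholded peaks matched in both replicates was 1.51. The scales of the replicates need not be the same, so the place of each ratio among these peaks is the comparable quantity. Only 1.63% of matched peaks had a higher ratio than vha-12, 8.94% than vha-8 and 16% than vha-13, but 47.4% than vha-15. Of the 2053 thresholded peaks, those without a summit within 100 bp in 1 or both replicates have no ratio. These shares therefore leave out peaks found in 1 replicate only. At vha-9, with a ratio of 1.20, 64.1% had a higher one.

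Taking from each replicate as many of its strongest regions as there are thresholded peaks therefore named different V1 genes. Replicate 2 alone named vha-8, vha-12 and vha-13 (3 of 9, with 7.0% of coding genes), and replicate 1 alone named only vha-9 (1 of 9, with 5.95% of coding genes). None of the 4 V1 peaks was among the 2053 strongest regions of replicate 1, while 63.2% of the thresholded peaks at coding starts had a match there. Their ranks in replicate 1 were 2134 at vha-13, 2446 at vha-15, 2871 at vha-8 and 9719 at vha-12, so that vha-13 fell only just short. The corresponding share for replicate 2 was 79.2%, and 3 of the 4 V1 peaks were in it. There vha-15, at rank 2118, also fell only just short. The part of depth or of a single library in these differences was not tested.

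**Figure D4:**
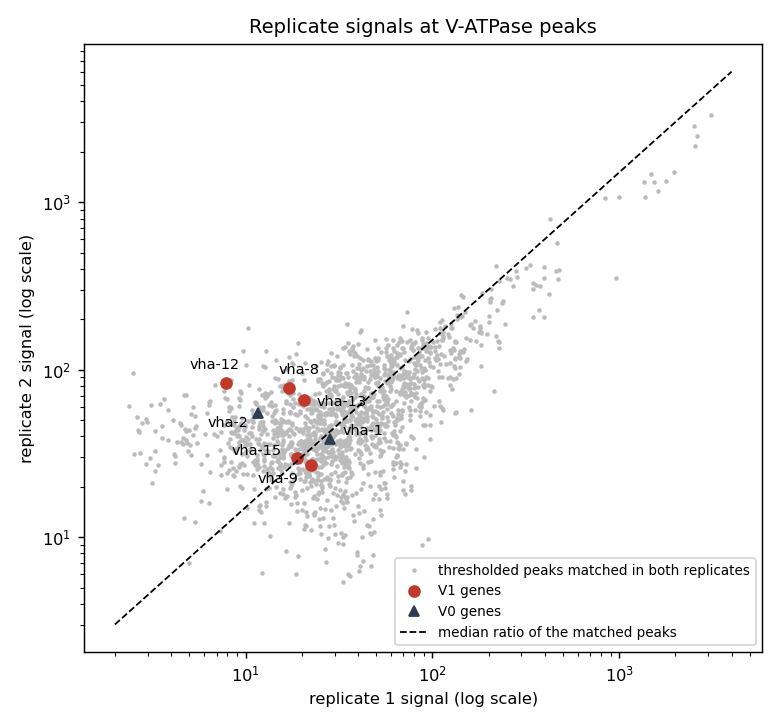
Signal in replicate 2 against replicate 1, both on log axes, for the 1656 thresholded peaks matched in both replicates (grey) and for V-ATPase gene starts (V1 circles, V0 triangles), with a dashed line at the median ratio of 1.51. The points of vha-12, vha-8 and vha-13 lie above the line, and those of vha-15 and vha-9 lie close to it.

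Some V1 genes follow another gene closely on the same strand, as genes of a C. elegans operon do, where transcription begins ahead of the first gene. With a gap of at most 1000 bp to the next coding gene upstream, 4 of the 9 V1 genes (44.4%) had this arrangement, against 28.5% of nuclear coding genes. Of these 4, vha-13 had a thresholded peak in its own window, and vha-9, vha-10 and vha-11 did not. Of the other 5, 3 had one. Among these, vha-15 also follows a gene on the same strand, T14F9.2, but with a gap of 1204 bp. The split therefore depends on the limit of 1000 bp. Over all coding genes the shares with a peak were 5.67% of genes with this arrangement and 7.21% of the rest. The annotation used here marks no operons, so that adjacency is the only criterion.

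The gene before vha-10 is trpp-8, which encodes a subunit of a vesicle trafficking complex and ends 103 bp away. Its start window had a pooled region with a signal of 45.6 and rank 2810. The strongest region in that window had 8.50 in replicate 1 and 20.3 in replicate 2. The gene before vha-11 is vha-3, which encodes a proteolipid subunit of V0 and ends 892 bp away. Its window had a pooled region 957 bp upstream with a signal of 37.9 and rank 3712, whose summit lay inside the divergent gene Y38F2AL.12. Replicate 2 listed that site with 13.9. In the window, replicate 1 listed only another site, 252 bp upstream of vha-3, with 5.61. The vha-11 region lay in the gap between vha-3 and vha-11. Both upstream start windows had a pooled region below the threshold, where the window of vha-10 had none and that of vha-11 a weaker one. This contrast depends on the window edge. Pooled regions of 34.0 and 33.5 lay just past it, 323 bp downstream of the vha-10 start and 299 bp downstream of the vha-11 start. The difference was not tested. The gene before vha-9 is gcy-4, which encodes a receptor guanylate cyclase and ends 425 bp away, and its start window had no region. The gene after vha-9, clpp-1, encodes a subunit of a mitochondrial protease and follows after 207 bp.

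The V0 and accessory genes, fixed as a list of 12 (vha-1 to vha-7, vha-16, vha-17, vha-19, vha-20 and unc-32), had thresholded peaks at 2 starts (16.7%). The share of all nuclear coding genes was 6.77%. Both belong to neighbouring genes for proteolipid subunits of the membrane ring, vha-1 and vha-2, which are 400 bp apart on one strand. The vha-1 peak had a pooled signal of 70.3 (rank 1519), with 28.5 in replicate 1 and 38.6 in replicate 2. It lay 461 bp upstream of vha-1 and 439 bp upstream of the divergent gene sqv-3, which encodes an enzyme of glycosaminoglycan synthesis.

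The vha-2 peak had a pooled signal of 79.5 (rank 1291), with 11.7 in replicate 1 and 55.3 in replicate 2. Its summit lay 103 bp downstream of the start, and it also fell in the window of R10E11.6. Like 3 of the V1 peaks it was stronger in replicate 2 than most, with 8.39% of matched peaks at a higher ratio. The strongest V0 or accessory gene without a peak was vha-3, and 3 of the 12 genes had no region in any list, against 47.0% of nuclear coding genes. The difference between the sectors was not tested.

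**Figure D5:**
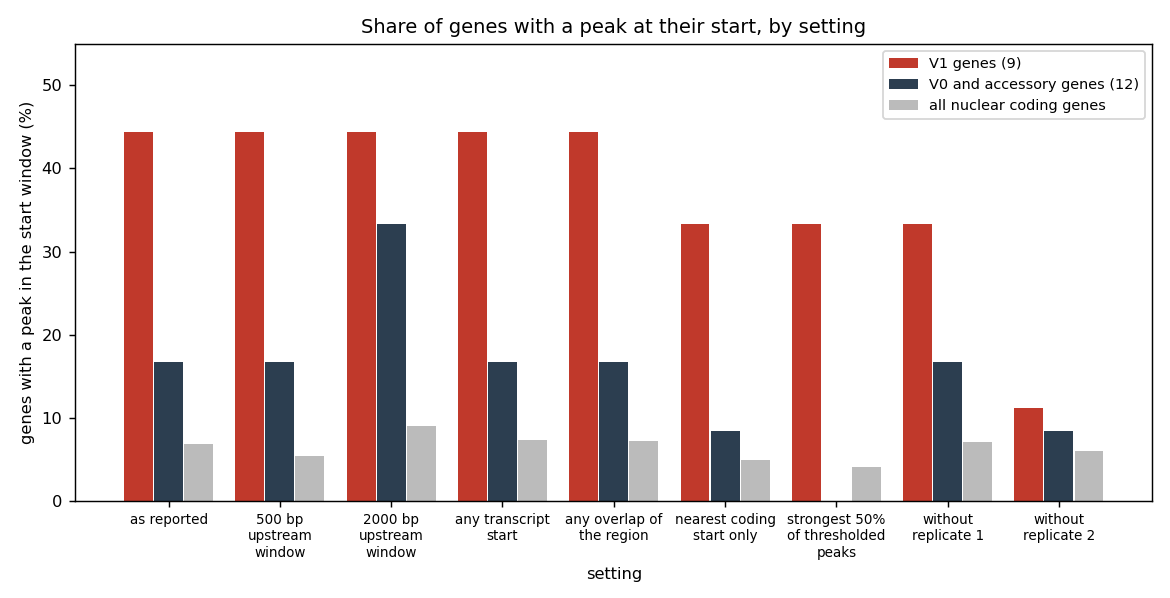
Percentage of V1 genes (red), V0 and accessory genes (dark blue) and all nuclear coding genes (grey) with a peak in the start window, as reported and under each alternative setting. The V1 share is 44.4% or 33.3% except without replicate 2, where it is 11.1% and the share of all coding genes is 5.95%.

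Other rules for the window left most of the V1 genes in place, whereas replicate 1 alone kept none of the 4. The same 4 V1 genes had a peak with a window from 500 bp upstream (5.42% of coding genes), from 2000 bp upstream (9.0%), around any annotated transcript start (7.28%) and with any overlap of the region (7.23%). Their summits, 263 to 490 bp upstream, lie inside each of these windows, so these rules could not drop any of them. When each summit counted for its nearest coding start only, 3 V1 genes were left, without vha-8 (4.93% of coding genes). Among the strongest 50% of thresholded peaks there were also 3, without vha-15 (3.98% of coding genes).

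The sequence within 150 bp of the summit was searched on both strands for letters of known elements. The E-box CACGTG, the core of the sites bound by the lysosomal regulator HLH-30, was in none of the 7 V1 regions of the pooled list, and in 7.67% of thresholded nuclear peaks and 5.52% of background regions. The GATA-type word TGATAA and the AP-1 word TGACTCA were in none of the 7 either. TGATAA was in 24.3% of thresholded peaks and 31.5% of background regions, and TGACTCA in 3.64% and 3.65%. The word ATGCAAA, part of the octamer element, was at vha-8 only, and in 9.83% of thresholded peaks and 9.24% of background regions. No match says only that these letters are not in these windows.

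A GA repeat, AGAGAG or its reverse complement CTCTCT, was chosen after the sequences had been seen. Within 100 bp of the summit it was at vha-13, vha-12, vha-14, vha-8 and vha-15, thus at each of the 4 peaks, and not at vha-9 or vha-11. The vha-9 window has the repeat in the other phase, TCTCTC, which was not counted. AGAGAG or CTCTCT was in 28.1% of thresholded nuclear peaks, 25.1% of those at coding starts and 13.1% of background regions. Because the word was picked from these windows, its count among them supports nothing further. The GC content of the same windows was 57.7% at vha-13, 52.7% at vha-12, 47.3% at vha-15, 45.3% at vha-8 and 39.3% at vha-9, against a median of 41.3% at coding starts with a peak. At the weak regions of vha-14 and vha-11 it was 36.3% and 30.8%, where background regions had a median of 35.8%. Among thresholded peaks at coding starts, 53.7% was the 95th percentile, so that vha-13 stood above it and vha-12 just below.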

How the data were processed

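The data are peak lists from anti-GFP ChIP-seq of 2 biological replicates of 1 group. Per the manifests deposited by the authors, relaxed region lists were called against a control alignment, 1 per replicate and 1 on pooled reads, and yielded the optimal list through the irreproducible discovery rate (IDR). Which aligner, caller and IDR cutoff served is not given in the sources. The deposited signal column holds the authors' peak height, without a stated scale, and the deposited summit column is an offset from the region start. Depth is unknown. The 2053 thresholded peaks were the 2053 strongest of the 30000 pooled regions. The 4 lists on ce10 were not used.

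Gene starts came from Ensembl release 115 on WBcel235 (ce11), and no region passed a chromosome end. Coordinates are 1-based. Summits within 100 bp were matched between lists by the nearest. Background regions were the 27488 pooled nuclear regions over 500 bp from thresholded summits. No test was run. Window assignment was tested on simulated summits. Named were the V1 genes, V0 genes with a peak and the strongest without, neighbours, and genes next in rank to the strongest V1 peak. The members and lists were chosen with earlier results of these data known. Python 3.11.15, numpy 2.4.6, pandas 2.3.3 and matplotlib 3.10.9 were used.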

Additional observations from a re-analysis of the deposited data

How the results depend on the processing

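The count of V1 genes with a peak was 4 with windows from 500 or 2000 bp upstream, with any transcript start and with any overlap of the region. It was 3 with the nearest coding start only (without vha-8) and with the strongest 50% of thresholded peaks (without vha-15). Leaving out a replicate gave 1 to 3 V1 genes and 1 to 2 V0 and accessory genes. The share of coding genes was then 7.0% without replicate 1 and 5.95% without replicate 2. With replicate 1 alone the V1 count was 1, and none of the 4 genes was in it. The V0 and accessory count moved to 4 with the window of 2000 bp, which adds vha-20 and unc-32 (9.0% of coding genes). It was 1 with the nearest start only (4.93% of coding genes) and 0 with the strongest 50% (3.98% of coding genes). The other windows mostly read the same pooled region again and so say little on the stability of its signal. Other regions were read at vha-11 with any overlap (33.5), at vha-8 with the nearest start only (10.8), at vha-10 with the 2000 bp window (16.6) or any overlap (34.0) and at vha-18 with the 2000 bp window (41.0), where the reported windows of vha-10 and vha-18 have no pooled region. No paired analysis was possible because there is 1 group. The lists give no depth, and with 2 replicates no error of a signal can be estimated well.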
